A study of Mus musculus with 8 samples.

Results

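The genes described here are the 5 receptor chains through which cells sense interleukin-4 (IL-4), interleukin-13 (IL-13) and interleukin-21, namely Il4ra, Il13ra1, Il13ra2, Il2rg and Il21r, and the 4 Janus kinases Jak1, Jak2, Jak3 and Tyk2. They were taken from the arrays by the gene name of each probe. All 9 genes were found, on 11 probes, among 26508 genes on 39417 probes that passed the filter on dim probes. All 9 passed that filter, Il13ra2 although it was not well above background on either LPS array.

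Expression was read on 8 one-colour arrays of mouse bone marrow cells, 2 arrays for each of 4 groups. Colony cells had grown from bone marrow for 7 days on a monolayer of endothelial cells in medium for haematopoietic stem cells. IL-4 macrophages and LPS macrophages were bone marrow cells kept for 7 days in M-CSF, the growth factor that drives macrophage differentiation, and given IL-4 or lipopolysaccharide (LPS, a component of bacterial outer membranes) for 24 hours. Control macrophages were grown in the same way and kept in control medium. All the mice, those behind the controls included, carried the transgene Tg(CAG-DsRed*MST)1Nagy on the B6.Cg background, which makes a red fluorescent protein under a promoter active in most tissues. Whether the pair of samples in each group had separate donors or dishes is not stated, and neither are the origin of the endothelial layer and its removal before RNA was taken. Substrate, medium and growth factor differ together between colony cells and the macrophage groups.

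IL-4 signals through receptors that share the chain IL-4Rα. In cells of the blood lineage IL-4Rα pairs mainly with the common gamma chain, encoded by Il2rg, and in many other cells with IL-13Rα1, and the pairing with IL-13Rα1 also responds to IL-13. Janus kinases sit on the intracellular tails of these chains, JAK1 on IL-4Rα, JAK3 on the common gamma chain, and TYK2 or JAK2 on IL-13Rα1, and phosphorylate the receptor so that STAT6 can bind. In macrophages this pathway switches on the genes of alternative activation. IL-13Rα2 binds IL-13 tightly and is best known as a decoy, and the interleukin-21 receptor also works with the common gamma chain.

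Il4ra and Jak3 were read by 2 probes each, and the 2 probes of Il4ra gave different answers, so their sequences are shown with those of Il2rg and Jak2, the genes with the largest changes against control among the 9. Il4ra and Il21r lie next to each other on chromosome 7, their nearest probes 53.7 kb apart with 0 RefSeq genes between them. Il13ra1, Il13ra2 and Il2rg lie on the X chromosome. Each probe is 60 bases long, and its mm9 coordinates were read from the array files. The Il4ra probe that begins at base 466 of transcript NM_001008700 lies at chr7:132712550-132712609 on the plus strand, and the probe that begins at base 5027 of it lies at chr7:132722922-132722981. The Jak3 probes lie at chr8:74210801-74210860 (base 3223 of NM_001190830) and at chr8:74214085-74214144 (base 3542 of NM_010589) on the plus strand. The Il2rg probe lies at chrX:98460130-98460189 on the minus strand and the Jak2 probe at chr19:29387487-29387546 on the plus strand. Capitals mark AATAAA or ATTAAA, the hexamers that commonly precede the end of a messenger RNA, which were chosen for display after the values had been seen and occur in 13.7% of the 55681 probes.
Il4ra, base 466: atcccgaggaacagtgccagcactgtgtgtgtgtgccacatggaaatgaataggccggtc
Il4ra, base 5027: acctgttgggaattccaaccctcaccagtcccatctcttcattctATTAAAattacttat
Jak3, base 3223: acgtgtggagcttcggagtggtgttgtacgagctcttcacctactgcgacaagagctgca
Jak3, base 3542: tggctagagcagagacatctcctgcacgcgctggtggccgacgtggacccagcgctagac
Il2rg, base 1148: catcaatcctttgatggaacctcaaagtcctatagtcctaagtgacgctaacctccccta
Jak2, base 4946: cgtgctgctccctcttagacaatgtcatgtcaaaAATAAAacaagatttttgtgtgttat

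Levels below are log2 signals relative to the 75th percentile of their own array, so that a level of 0 is the 75th percentile itself. They can be compared between groups for a given probe, and not between probes. Where a gene has 2 probes, the brighter stands for the gene, which is base 5027 for Il4ra and base 3223 for Jak3. A change is a difference of group means on the log2 scale with its standard error (2 arrays per group), from a limma model over all 8 arrays, and a call means that p, adjusted by the Benjamini-Hochberg method across the 26508 genes, was below 0.05. Pearson r across genes between the 2 arrays of a group was 0.986 to 0.997. LPS replicate 2 stood apart from the other 7 arrays, with 72.2% of spots well above background against 62.4% to 67.5% and 105 uneven spots against 0 to 5. Values without it are given where LPS is compared with control, and elsewhere where it changed a call. Control and IL-4 arrays lay in the first row of the slide and LPS and colony arrays in the second. For LPS or colony cells against control, and for either against IL-4, slide row and group cannot be told apart. Control and LPS arrays lay in columns 1 and 2, and IL-4 and colony arrays in columns 3 and 4. For IL-4 or colony cells against control, and for either against LPS, slide column and group cannot be told apart.

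Il4ra, the chain shared by both IL-4 receptors, was highest in LPS macrophages by either probe, and its 2 probes disagreed on colony cells and on IL-4. By the base 5027 probe its level was 1.20 and 1.16 in colony cells, 0.42 and 0.32 in IL-4 macrophages, 2.18 and 2.26 in LPS macrophages, and 1.07 and 1.16 in control macrophages. LPS macrophages were thus highest and IL-4 macrophages lowest, while colony cells overlapped the controls. By the base 466 probe its level was -2.08 and -2.36 in colony cells, -0.82 and -0.81 in IL-4 macrophages, 0.43 and 0.93 in LPS macrophages, and -0.90 and -0.69 in control macrophages. There, colony cells were lowest and IL-4 macrophages overlapped the controls.

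The change of Il4ra in IL-4 against control was -0.74 ± 0.08 by the base 5027 probe (1.67-fold lower, adjusted p = 0.00265), which was a call, and -0.02 ± 0.19 by the base 466 probe (adjusted p = 0.958), which was not. In LPS against control Il4ra rose by both probes, by 1.10 ± 0.08 (2.15-fold, adjusted p = 1.23e-04) at base 5027 and by 1.48 ± 0.19 (2.78-fold, adjusted p = 0.00151) at base 466. Against control, colony cells did not pass the test at base 5027 (0.06 ± 0.08, adjusted p = 0.492) and fell at base 466 (-1.42 ± 0.19, 2.68-fold lower, adjusted p = 0.00109). The log2 ratio of the base 5027 to the base 466 probe, tested in its own right, was 3.40 in colony cells and 1.91 in control macrophages, a difference of 1.48 ± 0.17 (adjusted p = 4.75e-04). In IL-4 macrophages the same ratio was 1.19, lower than in control by 0.72 ± 0.17 (log2 difference -0.72, adjusted p = 0.0349), and in LPS macrophages it was 1.54, a difference from control that did not pass the test (-0.37 ± 0.17, adjusted p = 0.109). The signals of the 2 stretches of transcript therefore changed unequally in colony cells and in IL-4 macrophages, and which of them follows the receptor protein was not tested.

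**Figure D1:**
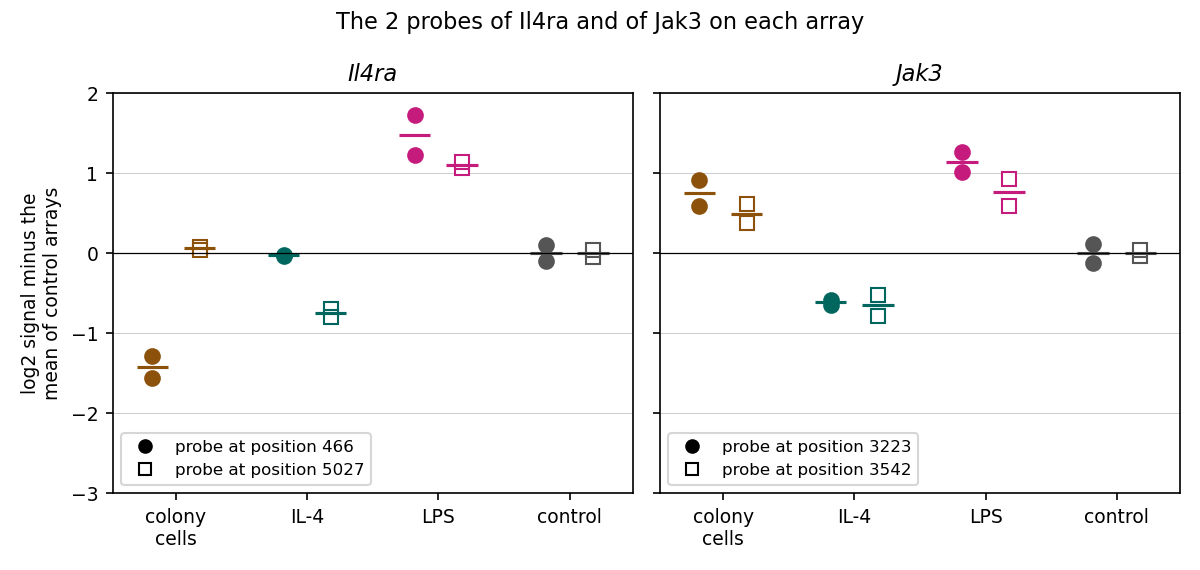
Log2 signal minus the mean of the 2 control arrays (vertical axis) for the 2 probes of Il4ra and of Jak3, with 1 point per array, a short line at each group mean, and the groups along the horizontal axis. In colony cells the Il4ra probe at base 466 lay 1.42 below control and the probe at base 5027 level with it, while the 2 Jak3 probes lay on the same side of control in all 3 other groups.

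Il2rg, which encodes the common gamma chain, had the widest range of the 9 genes. Its level was -1.08 and -1.17 in colony cells, 3.47 and 3.54 in IL-4 macrophages, 5.14 and 4.99 in LPS macrophages, and 3.18 and 3.18 in control macrophages. No 2 groups overlapped, and all 6 comparisons between groups were called. In colony cells Il2rg fell by 4.30 on the log2 scale against control (-4.30 ± 0.08, 19.7-fold lower, adjusted p = 7.62e-07), and 0.939% of genes tested had a lower change. LPS raised Il2rg by 1.89 ± 0.08 (adjusted p = 2.36e-05). The rise with IL-4 was small, 0.32 ± 0.08 (1.25-fold, adjusted p = 0.0453), and was lost in 13 of 19 alternative analyses, where the adjusted p reached up to 0.270.

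Il13ra1, the chain that completes the receptor for both IL-4 and IL-13, was lower after either stimulus. Its level was -1.66 and -1.57 in colony cells, -3.29 and -3.67 in IL-4 macrophages, -2.70 and -2.88 in LPS macrophages, and -2.05 and -2.13 in control macrophages. The groups fell in the order colony cells, control, LPS and IL-4 without overlap, and all 6 comparisons were called, although that of IL-4 with LPS was lost in 3 of 19 alternatives, with an adjusted p of up to 0.0977. Il13ra1 fell by 1.39 in IL-4 against control (-1.39 ± 0.14, 2.62-fold lower, adjusted p = 0.00269), the largest fall among the 9 genes in that comparison, and 1.5% of genes had a lower change. With normexp background correction, an offset method that compresses dim signals, the change was -0.89. It fell by 0.70 in LPS against control (-0.70 ± 0.14, 1.63-fold lower, adjusted p = 0.00863). The rise in colony cells, 0.48 ± 0.14 (1.39-fold, adjusted p = 0.0262), was lost in 7 of 19 alternatives, with an adjusted p of up to 0.179.

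Il13ra2, the decoy receptor for IL-13, was the gene nearest to background and was highest in colony cells. Its level was -2.66 and -2.57 in colony cells, -5.33 and -4.95 in IL-4 macrophages, and -4.30 and -4.55 in control macrophages. On the LPS arrays it measured -7.13 and -6.08 and was not well above background. In raw signal, the colony arrays read 129 and 142 intensity units, the IL-4 arrays 15.3 and 17.4, and the control arrays 25.1 and 20.5, where the local background had array medians of 17 to 21. Colony cells were 1.81 ± 0.35 above control (3.51-fold, adjusted p = 0.00488). LPS macrophages were at least 3.27-fold lower than control (adjusted p = 0.00345), a bound that sets the control mean against the lowest signal well above background on each LPS array, or the probe's own where that was higher. These sizes hold for the background subtraction used: with normexp the fitted changes were 0.61 in colony cells and -0.75 in LPS macrophages, and with normexp and quantile normalization together 0.81 and -0.55. IL-4 macrophages did not pass the test (-0.71 ± 0.35, adjusted p = 0.233). Leaving out either LPS array, which does not change these 4 arrays but changes the shared estimate of spread, gave an adjusted p of 0.0424.

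Il21r, the private chain of the interleukin-21 receptor and the gene next to Il4ra, measured -0.87 and -0.67 in colony cells, 0.73 and 0.82 in IL-4 macrophages, 2.25 and 2.06 in LPS macrophages, and 0.95 and 0.92 in control macrophages. LPS macrophages were highest and colony cells lowest, and IL-4 and control macrophages lay close together. Il21r rose by 1.22 ± 0.11 in LPS against control (2.33-fold, adjusted p = 3.08e-04) and fell by 1.70 in colony cells against control (-1.70 ± 0.11, 3.25-fold lower, adjusted p = 4.42e-05). The difference with IL-4 did not pass the test (-0.16 ± 0.11, adjusted p = 0.381).

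**Figure D2:**
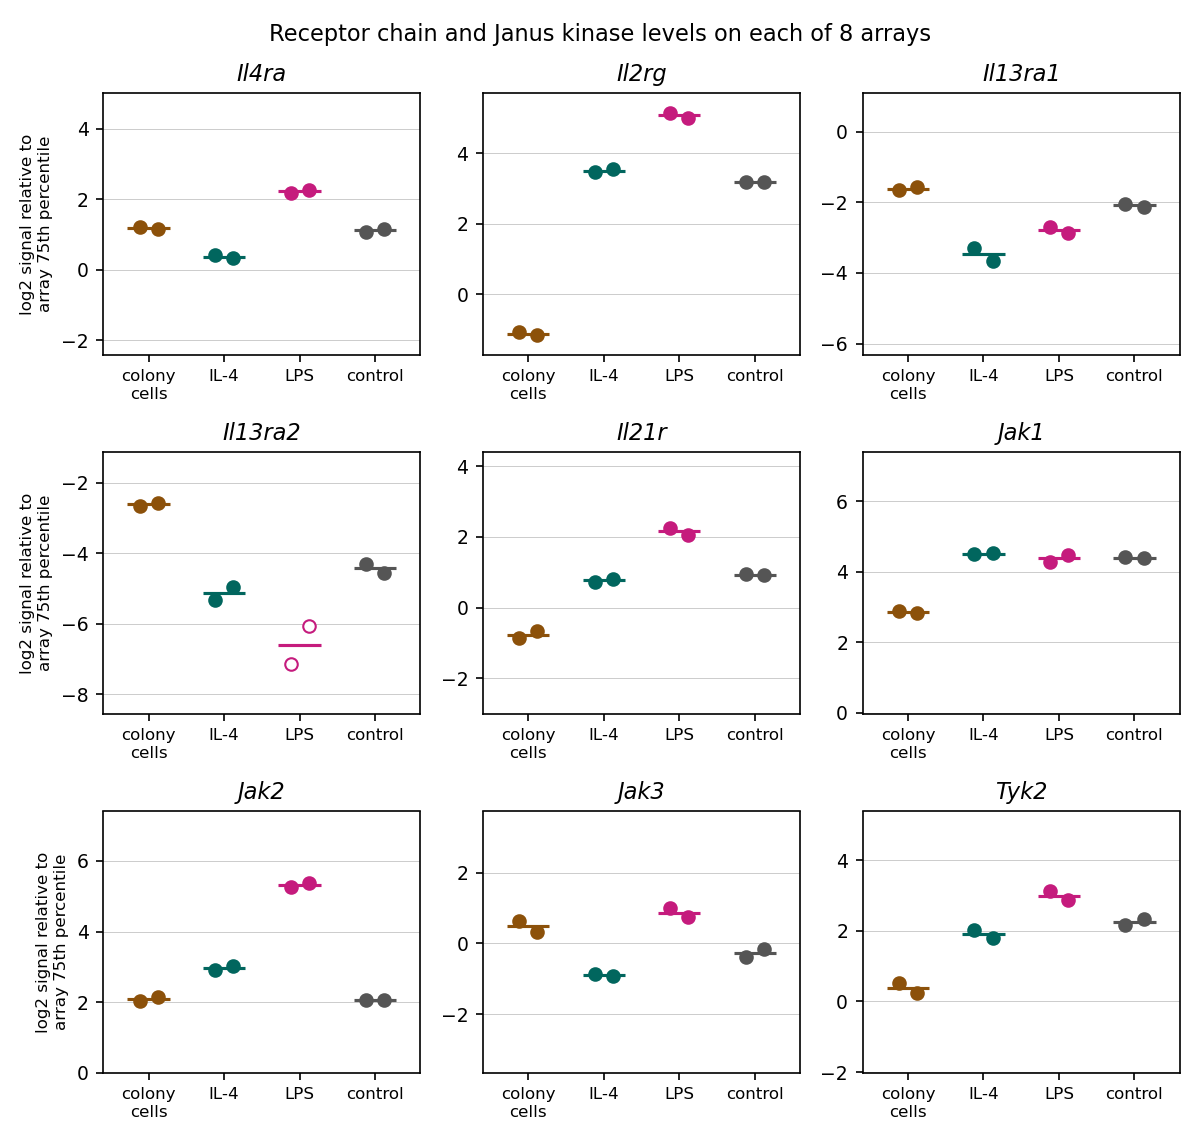
Log2 signal relative to the array's 75th percentile (vertical axis, the same span of units in each panel) for the 9 genes, with 1 point per array, a line at each group mean and the groups along the horizontal axis. Open points are not well above background, which applies only to Il13ra2 on the 2 LPS arrays. The brighter probe is drawn for Il4ra and Jak3. The LPS points of Jak2 lie at 5.25 and 5.37, and the colony points of Il2rg at -1.08 and -1.17.

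Among the kinases, Jak2 changed most in macrophages. JAK2 serves the receptors of interferon-gamma, of granulocyte-macrophage colony-stimulating factor and of many hormones besides IL-13Rα1. Its level was 2.03 and 2.16 in colony cells, 2.92 and 3.01 in IL-4 macrophages, 5.25 and 5.37 in LPS macrophages, and 2.07 and 2.06 in control macrophages. LPS macrophages were highest, IL-4 macrophages next, and colony cells and control overlapped. Jak2 rose by 3.24 ± 0.08 in LPS against control (9.47-fold, adjusted p = 4.46e-06), where 98.0% of genes had a lower change, and by 0.90 ± 0.08 in IL-4 against control (1.87-fold, adjusted p = 0.00198), where 96.4% did. It was the largest rise among the 9 genes in both comparisons. In colony cells against control it did not pass the test (0.03 ± 0.08, adjusted p = 0.783), but was called higher with quantile normalization (0.31) and with normexp and quantile normalization together (0.34).

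Jak1, the kinase of IL-4Rα and of many other cytokine receptors, lay at nearly the same level in the 3 macrophage groups and lower in colony cells. It measured 2.88 and 2.83 in colony cells, 4.50 and 4.52 in IL-4 macrophages, 4.27 and 4.48 in LPS macrophages, and 4.41 and 4.38 in control macrophages. The LPS arrays spanned the controls. Jak1 fell by 1.53 in colony cells against control (-1.53 ± 0.09, 2.90-fold lower, adjusted p = 3.10e-05). The changes with IL-4 (0.11 ± 0.09, adjusted p = 0.441) and with LPS (-0.02 ± 0.09, adjusted p = 0.891) did not pass the test, although the LPS value was called lower under the 2 quantile scalings, at -0.31 and -0.29.

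Jak3, the partner of the common gamma chain, moved in opposite directions with the 2 stimuli. By the base 3223 probe it measured 0.64 and 0.32 in colony cells, -0.85 and -0.92 in IL-4 macrophages, 1.00 and 0.75 in LPS macrophages, and -0.39 and -0.15 in control macrophages. By the base 3542 probe it measured -0.11 and -0.35 in colony cells, -1.25 and -1.51 in IL-4 macrophages, 0.20 and -0.14 in LPS macrophages, and -0.77 and -0.69 in control macrophages. Both probes put IL-4 macrophages lowest, control next, and colony cells and LPS macrophages above them.

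Jak3 rose in LPS against control by 1.14 ± 0.15 at base 3223 (2.21-fold, adjusted p = 0.00168) and by 0.76 ± 0.16 at base 3542 (adjusted p = 0.00956). It rose in colony cells against control by 0.75 ± 0.15 (1.69-fold, adjusted p = 0.00597) and 0.50 ± 0.16 (adjusted p = 0.0329). With IL-4 it fell by 0.61 at base 3223 (-0.61 ± 0.15, 1.53-fold lower, adjusted p = 0.0451) and by 0.65 at base 3542 (-0.65 ± 0.16, adjusted p = 0.0431), a call lost in 12 of 19 alternatives. The ratio between the probes differed in LPS against control (-0.38 ± 0.10, adjusted p = 0.0236) and did not pass the test in the other 2 groups against control. Jak3 was thus above control in colony cells, where Il2rg, whose product it serves, was 19.7-fold lower.

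Tyk2, the kinase that serves IL-13Rα1, the interferon-alpha receptor and the receptors of interleukin-12 and interleukin-23, measured 0.51 and 0.24 in colony cells, 2.04 and 1.79 in IL-4 macrophages, 3.12 and 2.86 in LPS macrophages, and 2.15 and 2.33 in control macrophages. LPS macrophages were highest, control and IL-4 macrophages followed, and colony cells were lowest. Tyk2 fell by 1.87 in colony cells against control (-1.87 ± 0.16, 3.65-fold lower, adjusted p = 1.44e-04) and rose by 0.75 ± 0.16 in LPS against control (1.69-fold, adjusted p = 0.00920). The LPS call was lost when arrays were centred on their median (0.57, adjusted p = 0.0786) and in the deposited value table (0.57, adjusted p = 0.0725). With IL-4 it did not pass the test (-0.33 ± 0.16, adjusted p = 0.222).

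Read by comparison, IL-4 against control macrophages asked how the receptor changes under its own ligand. Of the 9 genes, 2 were called higher (Jak2 and Il2rg), against 9.87% of all genes, and 3 lower (Il13ra1, Il4ra and Jak3), against 9.18%. With IL-4 the median change was -0.33, against -0.01 over all genes. The calls of Jak2 and Il13ra1 held in all 19 alternatives.

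In LPS against control macrophages, which asked how the classical stimulus alters the same genes, 6 were called higher (Jak2, Il2rg, Il21r, Jak3, Il4ra and Tyk2), against 28.9% of all genes, and 2 lower (Il13ra1 and Il13ra2), against 25.8%. Jak1 was not called. The median change was 1.10, against 0.08 over all genes. Without LPS replicate 2 the same counts were found, and the changes were 3.18 for Jak2, 1.96 for Il2rg, 1.32 for Il21r, 1.27 for Jak3, 1.07 for Il4ra, 0.88 for Tyk2, and -0.61 for Il13ra1. Il13ra2 was then at least 3.32-fold lower (adjusted p = 5.23e-04).

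In colony cells against control macrophages 3 genes were called higher (Il13ra2, Jak3 and Il13ra1), against 24.7% of all genes, and 4 lower (Il2rg, Tyk2, Il21r and Jak1), against 46.7%. Il4ra, at base 5027, and Jak2 were not called. With normexp and quantile normalization together both were, at 0.19 (adjusted p = 0.0384) and 0.34, which made 5 higher. Il4ra was called lower at base 466 (-1.42 ± 0.19, adjusted p = 0.00109) and with the mean of both probes (-0.68, adjusted p = 0.00409). The median change was 0.03, against -0.36 over all genes, so the median gene on these arrays was itself lower in colony cells on this scale. Of the chains that pair with IL-4Rα, Il13ra1 was thus called higher in colony cells than in control and Il2rg lower. The Il13ra1 call was lost in 7 of 19 alternatives and that of Il2rg in 0.

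**Figure D3:**
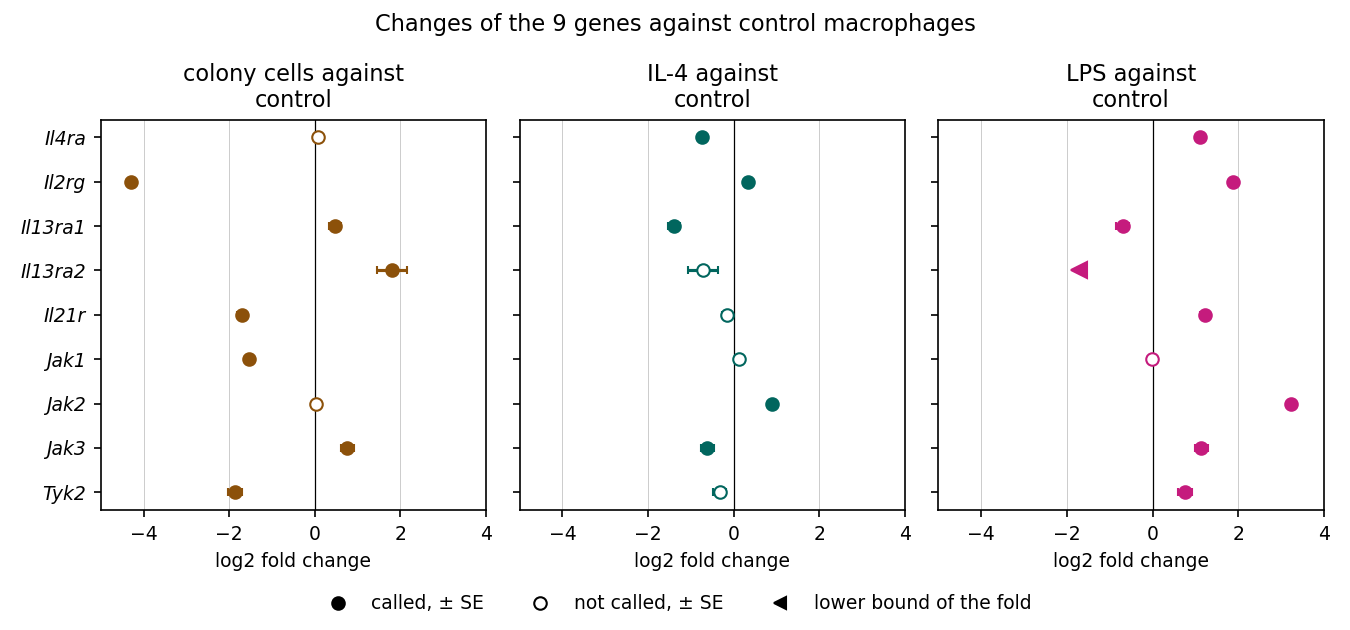
Log2 fold change (horizontal axis) of the 9 genes in colony cells, IL-4 macrophages and LPS macrophages, each against the same 2 control arrays. Filled points passed the test, open points did not, bars are standard errors (hidden where smaller than the point), and the triangle for Il13ra2 in LPS macrophages is the lower bound of its fold. Il2rg in colony cells (-4.30) and Jak2 in LPS macrophages (3.24) lie farthest from 0.

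The 3 comparisons without the controls followed from these levels. In IL-4 against LPS macrophages 1 gene was called higher, against 25.8% of all genes, and 7 lower, against 26.8%. Il13ra2 was at least 1.99-fold higher in IL-4 macrophages, Jak1 was not called (0.13 ± 0.09, adjusted p = 0.260), and the other 7 were lower, by -0.69 ± 0.14 for Il13ra1 to -2.34 ± 0.08 for Jak2, with Il4ra at -1.85 ± 0.08. The call of Il13ra2 was lost in 3 of 18 alternatives (0.38 with normexp, adjusted p = 0.0766), and Jak1 was called higher in 4 of 19 (0.31 to 0.35), so the count of higher genes was 0 to 2. In colony cells against IL-4 macrophages 4 genes were called higher, against 24.3% of all genes, and 5 lower, against 47.3%. The 4 were Il13ra2 (2.53 ± 0.35), Il13ra1 (1.87 ± 0.14), Jak3 (1.37 ± 0.15) and, at base 5027, Il4ra (0.80 ± 0.08), which was lower at base 466 (-1.40 ± 0.19). In colony cells against LPS macrophages 2 genes were called higher, against 26.8% of all genes, and 6 lower, against 49.7%. The 2 were Il13ra2 (at least 11.5-fold higher) and Il13ra1 (1.18 ± 0.14), and the largest fall was that of Il2rg (-6.19 ± 0.08, 73.0-fold lower). The sizes for Il13ra2, its bound included, hold for the background subtraction used. With normexp its fitted change in colony cells was 0.97 against IL-4 macrophages and 1.36 against LPS macrophages. Jak3 was not called (-0.39 ± 0.15, adjusted p = 0.0603), and without LPS replicate 2 it was (-0.51, adjusted p = 0.0476).

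The cellular make-up of the groups was read from marker lists, summed as multiples of each array's 75th percentile. Leukocyte markers summed to 144 to 145 in colony cells and 954 to 958 in control, and all 19 were lower, with a median change of -3.09. Macrophage markers summed to 142 to 145 in colony cells and 2033 to 2045 in control, and all 8 were lower (median -3.91). Markers of fibroblasts and mesothelium summed to 567 to 590 in colony cells and 0.578 to 0.721 in control, with 11 of 12 higher and 1 lower. Of the markers of mast cells and basophils 7 of 7 were higher, with sums of 6.38 to 6.41 in colony cells and 0.614 to 0.796 in control. Endothelial markers summed to 21.2 to 21.4 in colony cells and 19.9 to 22.4 in control, with 4 higher and 3 lower of 8 tested. Cdh5, Emcn, Tie1 and Erg were not well above background on either colony array. Tek, Emcn, Tie1, Erg, Esam and Robo4 were not on either control array. Of 11 listed, 7 were well above background on both colony arrays and 5 on both control arrays. Neutrophil markers had 3 higher and 1 lower of 8, and lymphocyte markers 0 higher and 3 lower of the 4 tested out of 9 listed. Over all genes 24.7% were called higher and 46.7% lower in colony cells against control.

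Il2rg, Tyk2, Il21r and Jak1 fell in colony cells on the same arrays in which these lists changed, some up and some down. Fewer cells of a type cannot be told apart from less RNA per cell in such samples. The part of cell make-up in these falls was not tested. All 4 Y chromosome genes listed were lower in colony cells, with sums of 1.24 to 1.31 against 8.68 to 9.72 in control, and Xist, the RNA that silences an X chromosome in females, was well above background on the colony arrays alone (0.88 and 0.78). The part of this difference in the values of the X-linked genes Il13ra1, Il13ra2 and Il2rg was not tested. In LPS macrophages 12 of 19 leukocyte markers were higher than in control and 3 lower, with sums of 1888 to 2091 in LPS macrophages and 954 to 958 in control. Over all genes 28.9% were called higher and 25.8% lower in LPS against control. Macrophage markers there had 3 higher and 5 lower of 8 (median -0.48), with sums of 1597 to 1843 in LPS macrophages and 2033 to 2045 in control. Neutrophil markers had 3 higher and 5 lower of 8, with sums of 40.9 to 42.7 in LPS macrophages and 47.5 to 57.1 in control. Of the 7 markers of mast cells and basophils, Hdc alone was called higher there with both LPS arrays (6.08 ± 0.13), 1 was called lower and 5 were not called. Without LPS replicate 2 the calls among these 7 markers differed, and the change of Hdc was 6.01. Their median change was 2.02, or 0.55 with dim genes at their bound, and 0.75 without LPS replicate 2. They summed to 8.59 to 9.19 in LPS macrophages and 0.614 to 0.796 in control. In IL-4 macrophages leukocyte markers summed to 982 to 1008, with 4 higher and 4 lower than in control. Over all genes 9.87% were called higher and 9.18% lower in IL-4 against control. Macrophage markers had 0 higher and 6 lower of 8 (median -0.79), with sums of 1481 to 1530 in IL-4 macrophages and 2033 to 2045 in control, and neutrophil markers 1 higher and 5 lower of 8, with sums of 39.6 to 39.7 in IL-4 macrophages and 47.5 to 57.1 in control. The part of these shifts in the falls of Il13ra1, Il4ra and Jak3 with IL-4, and in the changes with LPS, was not tested.

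Among the other chains that signal through Janus kinases, Il31ra (3.42 ± 0.21) and Il27ra (3.37 ± 0.21), chains of the interleukin-31 and interleukin-27 receptors, were higher in IL-4 macrophages than in control. In that comparison 11 of 36 tested were higher (30.6%, against 9.87% of all genes) and 6 lower (16.7%, against 9.18%), with a median of 0.11 against -0.01 over all genes. Ifnlr1, the interferon-lambda receptor chain, was dim there and at least 1.51-fold lower. In LPS against control 14 were higher (38.9%, against 28.9% of all genes) and 13 lower (36.1%, against 25.8%), with a median of 0.09 against 0.08, and without LPS replicate 2 the counts were 12 and 10. The interleukin-23 receptor gene Il23r rose at least 31.2-fold and Il2ra, which encodes the alpha chain of the interleukin-2 receptor, at least 22.1-fold, while Lifr, the leukaemia inhibitory factor receptor gene, fell by 5.35 (-5.35 ± 0.18). Colony cells had 7 higher (19.4%, against 24.7% of all genes) and 21 lower (58.3%, against 46.7%) than control, with a median of -0.59 against -0.36. Osmr, the oncostatin M receptor gene, was at least 786-fold higher and Ifnlr1 higher by 4.12 ± 0.46, and Il10ra, a chain of the interleukin-10 receptor, was lower by 5.27 (-5.27 ± 0.07). Osmr is also expressed in fibroblasts and mesothelium, and the part of cell make-up in its rise was not tested.

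The messengers and brakes of the pathway include the SOCS genes, inhibitors that bind receptors or Janus kinases and are themselves induced by cytokines. In IL-4 against control 7 of 30 were higher (23.3%, against 9.87% of all genes) and 5 lower (16.7%, against 9.18%), with a median of -0.01 as over all genes, and Cish (4.35 ± 0.11), Socs2 (4.10 ± 0.15) and Socs1 (4.09 ± 0.12) rose most. In LPS against control 17 were higher (56.7%, against 28.9% of all genes) and 7 lower (23.3%, against 25.8%), with a median of 0.39 against 0.08, and without LPS replicate 2 the counts were 16 and 8. The largest rises were those of Socs3 (6.81 ± 0.08) and Socs1 (5.07 ± 0.12), while the adaptor gene Irs2 fell by 2.51 (-2.51 ± 0.17). Colony cells had 9 higher (30%, against 24.7% of all genes) and 16 lower (53.3%, against 46.7%) than control, with a median of -0.46 against -0.36. The adaptor gene Irs1 was at least 217-fold higher there, Socs2 was 4.83 ± 0.15 higher, and Ptpn6, the phosphatase SHP-1 of blood cells, was 3.85 lower (-3.85 ± 0.07).

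Target genes of IL-4 in macrophages, a list chosen for that response, rose in IL-4 macrophages as a group. In IL-4 against control 19 of 23 tested were higher (82.6%, against 9.87% of all genes) and 1 lower (4.35%, against 9.18%), with a median of 3.03, or 3.005 with dim genes at their bound. Retnla, which encodes a resistin-like secreted protein, was at least 39654-fold higher, the arginase gene Arg1 at least 444-fold higher, and the ribonuclease gene Rnase2a 9.06 ± 0.09 higher. Jak3, Il13ra1 and, at base 5027, Il4ra were thus lower on the same arrays in which these targets were higher. In LPS against control 9 were higher (39.1%, against 28.9% of all genes) and 8 lower (34.8%, against 25.8%), with a median of -0.01 against 0.08, and without LPS replicate 2 the counts were also 9 and 8. Arg1 rose at least 158-fold and Il1rn, the interleukin-1 receptor antagonist gene, by 7.23 ± 0.13, while the lectin gene Clec10a fell by 7.32 (-7.32 ± 0.09). Colony cells had 14 higher (60.9%, against 24.7% of all genes) and 7 lower (30.4%, against 46.7%) than control, with a median of 0.77, or 0.72 with dim genes at their bound, against -0.36. Those higher included Arg1 (at least 10049-fold), the fibronectin gene Fn1 (10.18 ± 0.18) and the E-cadherin gene Cdh1 (at least 42.2-fold). The last 2 are also expressed by mesenchymal or epithelial cells, and the part of cell make-up in these rises was not tested.

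Of 8 ligand genes 5 passed the filter on dim probes, and Il9, Il13 and Il21 did not. In IL-4 against control Tslp (1.48 ± 0.38, adjusted p = 0.0481) and Il7 (at least 2.37-fold) were higher and Il15 lower (-0.56 ± 0.13). The share called higher was 40% of the 5, against 9.87% of all genes, and the share called lower 20%, against 9.18%. In LPS against control Il15 rose by 1.26 ± 0.13 and Il7 at least 5.32-fold, while Il4 (-0.75 ± 0.18, adjusted p = 0.0149) and Tslp (at least 1.18-fold lower) fell. That was 40% of the 5 higher, against 28.9% of all genes, and 40% lower, against 25.8%. Without LPS replicate 2 the changes were 1.30 for Il15 and -0.88 for Il4. Il7 was then at least 5.20-fold higher and Tslp at least 1.33-fold lower. Against control none was called higher in colony cells, against 24.7% of all genes. Il15 (-2.83 ± 0.13), Il2 (at least 4.51-fold lower) and Il4 (-1.97 ± 0.18) were lower there, which was 60% of the 5, against 46.7% of all genes. Il4 itself had a mean level of -4.83 in colony cells, -2.85 in IL-4 macrophages, -3.61 in LPS macrophages and -2.86 in control macrophages, and did not differ between IL-4 and control beyond the error (0.01 ± 0.18, adjusted p = 0.968).

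**Figure D4:**
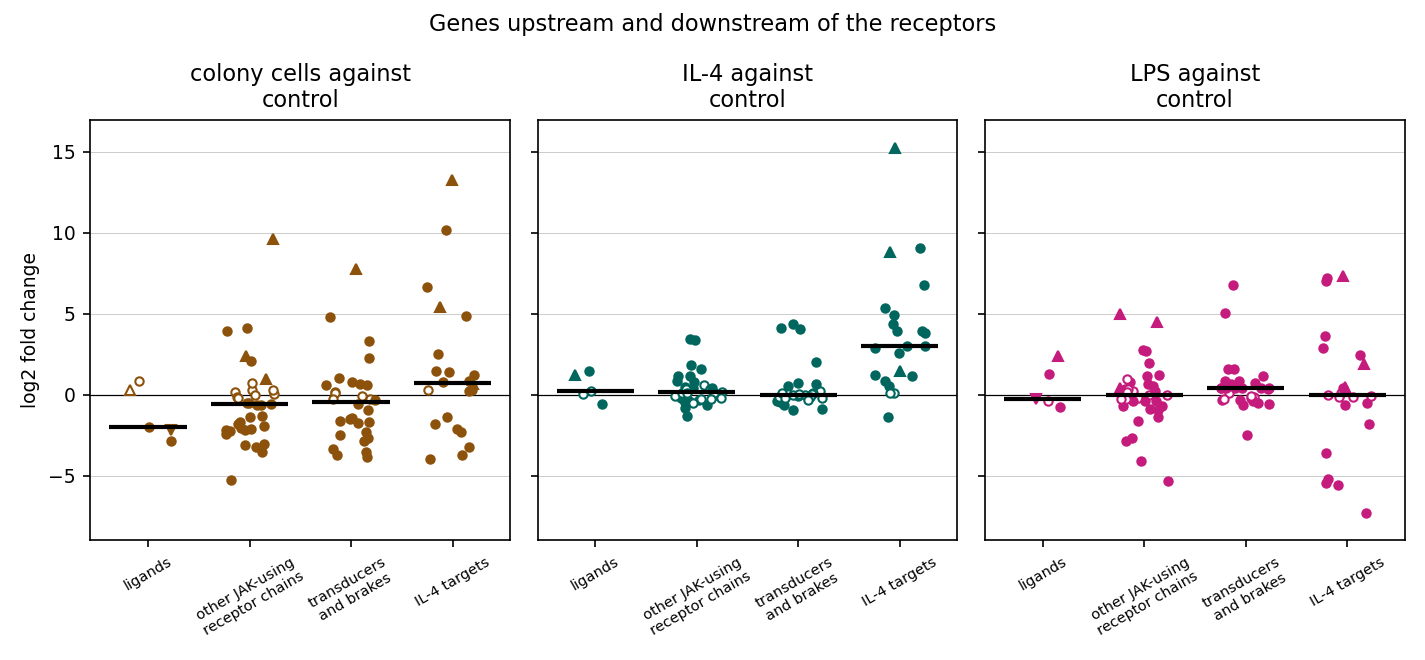
Log2 fold change (vertical axis) of single genes in 4 lists, in colony cells, IL-4 macrophages and LPS macrophages, each against control. Filled symbols passed the test, open symbols did not, triangles are lower bounds for genes dim in 1 group, genes dim in both are left out, and black lines are list medians with dim genes at their bound. The median of the IL-4 targets was 3.005 in IL-4 macrophages, 0.72 in colony cells and -0.01 in LPS macrophages.

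The genes whose profiles over the 8 arrays lay nearest to each receptor chain or kinase were found among 14378 genes well above background on every array, by the root mean square difference of levels centred on each gene's own mean. Nearest to Il4ra (base 5027) were Nab1 (0.10) and Lrrk2 (0.11), to Il2rg Afp (0.20) and Pik3r5 (0.28), to Il13ra1 Caskin2 (0.24) and Megf9 (0.24), and to Il21r Ccdc71l (0.09) and Acaa1b (0.13). Nearest to Jak1 were Rtf2 (0.06) and Phf24 (0.07), to Jak2 C3 (0.19) and Serpina1c (0.21), to Jak3 Foxp4 (0.16) and Fap (0.18), and to Tyk2 Arid3b (0.09) and Psd4 (0.12). Il13ra2, dim in LPS macrophages, was left out. With 4 group means to match, such likeness is a description of level only.

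The promoters of the 9 genes, 250 bases before to 50 after the start (RefSeq sequences on build GRCm38.p6), were searched on both strands for 3 motifs. TTC and GAA with 4 free bases between them, the form STAT6 prefers, is held by 6.95% of 32851 mouse promoters of that length. The same letters with 3 free bases, the form of other STAT proteins, are held by 8.30%, and GAAA and GAAA with 2 free bases, the core of interferon response elements, by 3.44%. The windows of the 9 genes held 0 matches to each. Base composition ranged from 37.7% G or C at Il13ra2 to 81.0% at Jak2.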

How the data were processed

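The members and the gene lists were chosen with earlier results of these data known. Spot signals were deposited in intensity units, background-subtracted by Agilent Feature Extraction 10.7.3.1 per the file headers, with other columns, per the file headers 0 or 1, that mark spots well above background, saturated or outlying (0 spots were saturated). A deposited log2 table, used as an alternative, equalled the log2 signal minus a constant per array (r of at least 0.999975), with medians of 2.53 to 2.96; what that constant is was not given in the sources used here. The submitters' processing notes list Partek 6.4 and RMA, with no step given for either.

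Uneven and outlying spots were left out, signals were put on the log2 scale, and each array's 75th percentile was taken off. A probe stayed if any group had it well above background on its 2 arrays (39417 of 55681), and the probe with the highest mean stood for its gene. The model was fitted with limma 3.58.1 under R 4.3.3 (4 group means, 4 residual and 1.57 prior degrees of freedom). Of the genes tested, 39 lacked a value on at least 1 array. With 2 arrays against 2 the smallest exact permutation p is 0.333, so calls rest on variances shared across genes, and p-values measure only the spread between these samples, which may be technical. The number of arrays limits the precision. Genes named from the lists are the called members with the 3 largest absolute changes per list and comparison, or the 2 largest where none was called; Hdc, and Il4 in IL-4 and LPS macrophages, fall outside that rule and were named after their values were seen. All arrays shared 1 slide and 1 scan. Exons were not assigned, since no annotation of build mm9 was used here.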

Additional observations from a re-analysis of the deposited data

How the results depend on the processing

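Of 1020 values of the 9 genes under 19 other settings, 961 kept their side of the threshold and, where called, their direction. Of 54 gene results, 40 did so under every alternative run. Values on the uncalled side could change sign, as Jak1 did in LPS against control (-0.02, and 0.03 with normexp). The 9-gene count of calls for IL-4 against control was 5, and 3 with quantile normalization, with median centring, in the deposited value table, with no filter on dim probes and with only the 2 groups compared, and leaving out 1 array gave 3 to 6. Il2rg and Jak3 were the calls lost, except that the mean of the probes, and the other probe, lost Il4ra. The share of all genes called for IL-4 against control was 19%, and 19.2% with quantile normalization. It was 10.1% with median centring, 12.2% in the deposited value table, 10.6% with no filter on dim probes and 12.4% with only the 2 groups compared. Except with quantile normalization, the share over all genes thus fell in these settings too. The total counts of calls in the other 5 comparisons stayed within 1.5 times under the alternatives run, but counts in 1 direction moved further. For IL-4 against control 2 genes were higher and under 13 settings 1, for IL-4 against LPS 1 and under others 0 or 2, and for colony cells against control 3 and 5 with normexp and quantile normalization. With all 8 arrays required above background, LPS against control had 1 lower in place of 2 and colony cells against LPS 1 higher in place of 2, as Il13ra2 had no value. Arrays with the same replicate number shared little of their deviation from the group means (r -0.16 to 0.05). That cannot show whether they shared a donor or a day. With a replicate block 3 genes were called for IL-4 against control, where 14.6% of all genes were. For Il4ra, colony cells against control gave -0.68 with the mean of both probes and -1.42 with the other probe, and colony cells against IL-4 gave -0.30 and -1.40; the other probe was an alternative chosen after seeing the data. Over all genes, 5049 were called for IL-4 against control, and 2667 with median centring and 2832 in the deposited table. The share of calls that were higher for LPS against control was 52.9%, and 38.3% to 44.1% under the other scalings; for IL-4 against LPS it was 49.0%, and 57.2% to 66.2%. The block for slide was not run, since there was 1 slide. The list counts without LPS replicate 2 were an alternative chosen after seeing the data. Il13ra2 lay nearest to background, which limits its values.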
